A study of Mus musculus with 2 samples.

Results

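Distal convoluted and connecting tubule cells were followed in newborn mouse kidneys, in a library from pups exposed to maternal diabetes and in a control library. Members were chosen by their own UMI counts: a cell was taken when it held at least 1 unique molecular identifier (UMI) of Slc12a3, held at least 2 of the 7 helper genes Calb1, S100g, Pgam2, Tmem52b, Kl, Wnk1 and Abca13, and held no UMI of Umod, Aqp2 or Atp6v1g3. Cells with a hybrid doublet score over 1 were dropped. These counts describe the cells and support nothing by themselves. The rule found 245 of 14565 cells, of which 82 of 5494 were in the exposed library and 163 of 9071 were in the control library.

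The distal convoluted tubule follows the thick ascending limb of the nephron and takes up sodium and chloride through the thiazide-sensitive cotransporter that Slc12a3 encodes. The WNK kinases set the activity of that cotransporter. The late part of the segment and the connecting tubule also take back calcium, which crosses the cell bound to calbindins, and the early part is a main site of magnesium uptake. The connecting tubule joins the nephron to the collecting duct and begins to use the epithelial sodium channel.

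Both libraries were made by droplet sequencing with the 10x Genomics 3' v2 chemistry from dissociated, frozen cells of whole kidney. The exposed group was DM_Exp, the pups of diabetic mothers, and the control group came without that exposure. The strain was C57BL/6J, the design text names male mice, and the age was postnatal day 2, an age at which mouse kidneys still form nephrons. The labels speak of pooled cells and of 1 kidney, and do not settle how many animals a library held. With 1 library per group there is no replicate check on any difference between exposed and control, and no test was run. The intervals given are 95% intervals that cover counting error only, and treat each UMI as an independent draw.

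Depth and quality touched the comparison. The members held 376801 UMIs in the exposed library and 697953 in the control library, with medians of 3865 and 3499 UMIs per cell, against medians of 4230 and 3434 over all cells. Mitochondrial transcripts made up a median of 49.2% of the UMIs of an exposed member and 38.8% of those of a control member, whereas all cells had medians of 5.25% in the exposed and 6.97% in the control library. Members with over 50% mitochondrial UMIs numbered 39 of the exposed cells (47.6%, 36.4 to 58.9) and 59 of the control cells (36.2%, 28.8 to 44.1). The libraries shared 14 cell barcodes, and 0 of them belonged to a member.

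A few members carried transcripts of other cells. Slc12a1, the cotransporter of the thick ascending limb, had 0 UMIs in exposed members, which allows up to 7.96 CPM (UMIs of a gene scaled to a common total, as defined with the processing), against 130 UMIs in 13 control members, 61 of them in a single cell. The 12 proximal tubule markers summed to 167 CPM in exposed members, with 7 markers at 0, and to 701 CPM in control members, with 2 at 0. The 5 erythroid markers had 1760 UMIs in exposed members, all in 1 cell, against 2 in control members. The 6 immune markers had 48 UMIs in exposed members and 1130 in control members, of which 1 cell held 1117. Members with a UMI of Slc12a1, or with at least 3 markers of the proximal, podocyte, stroma, endothelium, nephron progenitor, immune or erythroid lists, numbered 6 in the exposed and 28 in the control library. Values without these cells are given beside the results they move most. Markers of the neighbouring segments, many of which distal tubule cells also express, summed to 1314 CPM in exposed and 1421 CPM in control members for the thick ascending limb, to 379.5 and 481 CPM for principal cells and to 191 and 176 CPM for intercalated cells. Sums for the other lists were lower, with podocyte markers at 23.9 CPM in exposed and 50.1 CPM in control members, stroma markers at 23.9 and 44.4 CPM, endothelium markers at 34.5 and 65.9 CPM, and nephron progenitor markers at 31.8 and 34.4 CPM, each in the exposed and then the control library.

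The promoters of Slc12a3 and S100g are shown because these genes define the cells, Slc12a3 as the entry to the rule and S100g as the most abundant of the markers. A RefSeq promoter window, from 250 bases before to 50 bases after the gene's start, was matched for 4 of the 5 marker genes. The capitals mark the match to the TFAP2 motif GCCNNNGGC, searched on both strands because Tfap2b, a transcription factor of the distal nephron, is expressed in these cells. The Slc12a3 window lies at chr8:94328958-94329257 on the plus strand and the S100g window at chrX:162964550-162964849 on the minus strand of GRCm38.p6.
Slc12a3: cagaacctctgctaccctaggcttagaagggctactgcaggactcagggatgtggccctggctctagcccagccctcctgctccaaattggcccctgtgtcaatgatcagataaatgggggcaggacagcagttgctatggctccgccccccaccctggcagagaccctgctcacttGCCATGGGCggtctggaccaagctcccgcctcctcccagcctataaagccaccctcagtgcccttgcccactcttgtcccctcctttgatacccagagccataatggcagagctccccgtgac
S100g: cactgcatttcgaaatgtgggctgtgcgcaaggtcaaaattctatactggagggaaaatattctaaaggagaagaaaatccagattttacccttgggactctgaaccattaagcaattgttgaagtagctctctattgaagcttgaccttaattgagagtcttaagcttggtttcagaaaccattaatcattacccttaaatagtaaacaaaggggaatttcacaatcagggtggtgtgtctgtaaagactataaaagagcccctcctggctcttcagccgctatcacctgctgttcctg
The TFAP2 motif stood once in the Slc12a3 window and in 0 of the S100g, Pgam2 and Kl windows, and 16.6% of all 32851 RefSeq promoter windows of the same length hold it. The estrogen-related receptor motif TCAAGGTCA and the HNF1 motif were in none of the 4 windows, against 0.423% and 0.00913% of all windows. A match is a description of the letters and not a measured binding site.

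Members made up 1.49% of exposed cells (1.19 to 1.85, Clopper-Pearson) and 1.80% of control cells (1.53 to 2.09). The difference was -0.304 percentage points (-0.717 to 0.133, Newcombe), within counting error. Among cells with at most 50% mitochondrial UMIs the shares were 0.850% in the exposed (43 of 5061 cells) and 1.28% in the control library (104 of 8128 cells), a difference of -0.430 points (-0.776 to -0.0623). Among cells with at least 2000 UMIs, each thinned to 2000, the rule was met by 69 of 4965 exposed and 139 of 7587 control cells. The difference was then -0.442 points (-0.880 to 0.0168). Without the members carrying markers of other types it was -0.105 points (-0.492 to 0.309).

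The rule's own genes describe how firmly cells sat inside it. Slc12a3 had a median of 15 UMIs per exposed member (range 1 to 122) and 12 per control member (1 to 78), and 10 exposed and 25 control members had exactly 1 UMI. The median member held 5 helper genes in both libraries, and 4 exposed and 10 control members held exactly 2. Just outside the rule, 6 exposed and 7 control cells had Slc12a3 with a single helper gene, with a median of 1 Slc12a3 UMI in both libraries. A larger group of 23 exposed and 59 control cells had Slc12a3 and the helpers but also Umod, Aqp2 or Atp6v1g3, with median Slc12a3 of 13 and 8 UMIs.

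Marker levels differed more from cell to cell than between the libraries. Slc12a3 stood at a median of 4268 CPM per exposed cell (70.5 to 11555) and 4035 CPM per control cell (64.3 to 13699). S100g, a vitamin D-dependent calbindin that carries calcium, had a median of 7897 CPM in exposed cells, from 0 to 98813, and of 9494 CPM in control cells, from 0 to 132432. Calb1, the larger calbindin, had medians of 983 CPM in exposed and 1078 CPM in control cells, and was at 0 in the lowest cells of each. Pgam2, a phosphoglycerate mutase, had medians of 553 and 514 CPM, and Kl, the co-receptor for the phosphate hormone Fgf23, of 349 and 200.5 CPM, each in exposed and then control cells. The ranges of the libraries overlapped for all 5 markers.

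**Figure D1:**
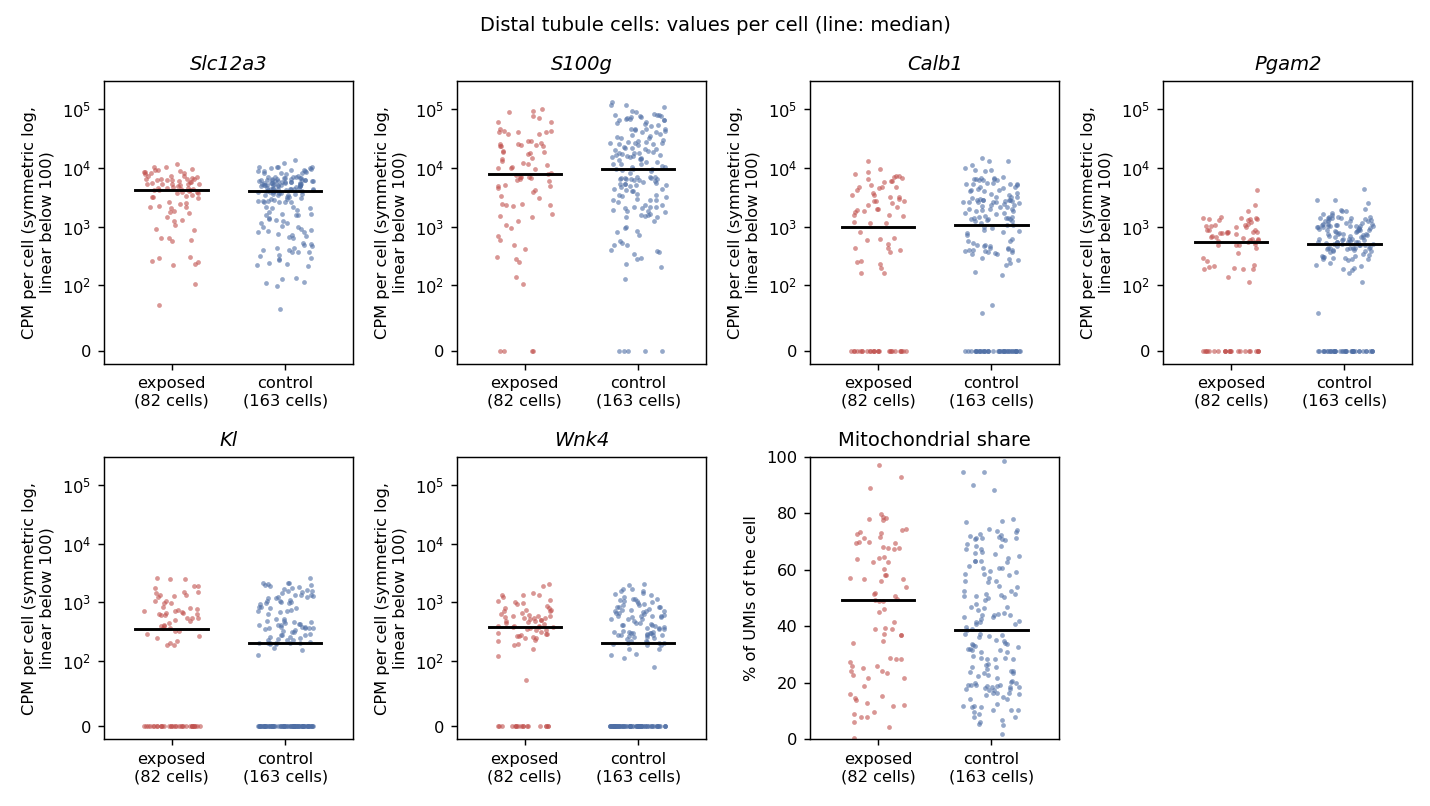
Each point is 1 cell meeting the rule, exposed left and control right, at its CPM on a symmetric log axis that is linear below 100, or, in the last panel, at its percent of mitochondrial UMIs; lines are medians. The exposed and control cells overlap for each gene, and the mitochondrial medians are 49.2% in exposed and 38.8% in control cells.

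Genes outside the rule were ranked by their excess in the members over the neighbouring segments, which is given as a description of cells chosen by their expression. The leading genes were picked for being higher, so they do not test whether known genes of this segment are higher. Against the summed thick ascending limb, principal and intercalated cells, the 10 genes with the largest excess in both libraries were Trpm6, Klhl3, Ltc4s, Emx1, Slc8a1, Atp2b4, Sdpr, AI838599, Cyb5rl and Sall3. These neighbours were found by their own markers and held no Slc12a3 by definition, so their level of that gene is fixed by the choice. Trpm6, the magnesium channel of the distal convoluted tubule (chr19:18749983-18892511, plus strand), had 87.6 CPM in exposed and 75.9 CPM in control members. Its level in the neighbours was 1.21 CPM in the exposed and 1.19 CPM in the control library. Klhl3, the adaptor that sends WNK kinases to degradation (chr13:58000228-58113592, minus strand), had 271 CPM in exposed and 264 CPM in control members, against 28.7 and 26.4 CPM in the neighbours. Emx1, a homeobox gene (chr6:85187438-85204462, plus strand), had 186 CPM in exposed and 275 CPM in control members, against 19.4 and 17.5 CPM in the neighbours. The log2 excess over the neighbours was between 2.19 and 3.14 in the exposed library and between 2.26 and 3.37 in the control library for these 10 genes. Coordinates are from GENCODE vM21 on GRCm38, the assembly that mm10 names.

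Free RNA sets a floor under such values. A UMI of Slc12a3, which every member has by the rule, was found in 0.602% of exposed stromal and 0.215% of exposed endothelial cells. In the control library it was found in 0.231% of stromal and 0.451% of endothelial cells. Median depths, in the same order, were 3202.5, 3143.5, 2492.5 and 2534 UMIs. Among these, 1 exposed stromal, 1 exposed endothelial and 2 control endothelial cells also met the rule. The shares in these groups thus include members and are not free RNA alone. S100g, the most abundant marker, reached 95.1% of exposed and 96.9% of control members, against 6.33% and 8.58% of exposed and 9.95% and 17% of control stromal and endothelial cells. Trpm6 was found in 31.7% of exposed and 21.5% of control members, and in at most 0.215% of stromal or endothelial cells in either library. Trpm6, which the rule did not use, was thus found in a larger share of members than of stromal or endothelial cells. S100g was as well, but it is a helper gene of the rule. The choice of cells favoured it, so its share in members does not test it against free RNA.

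**Figure D2:**
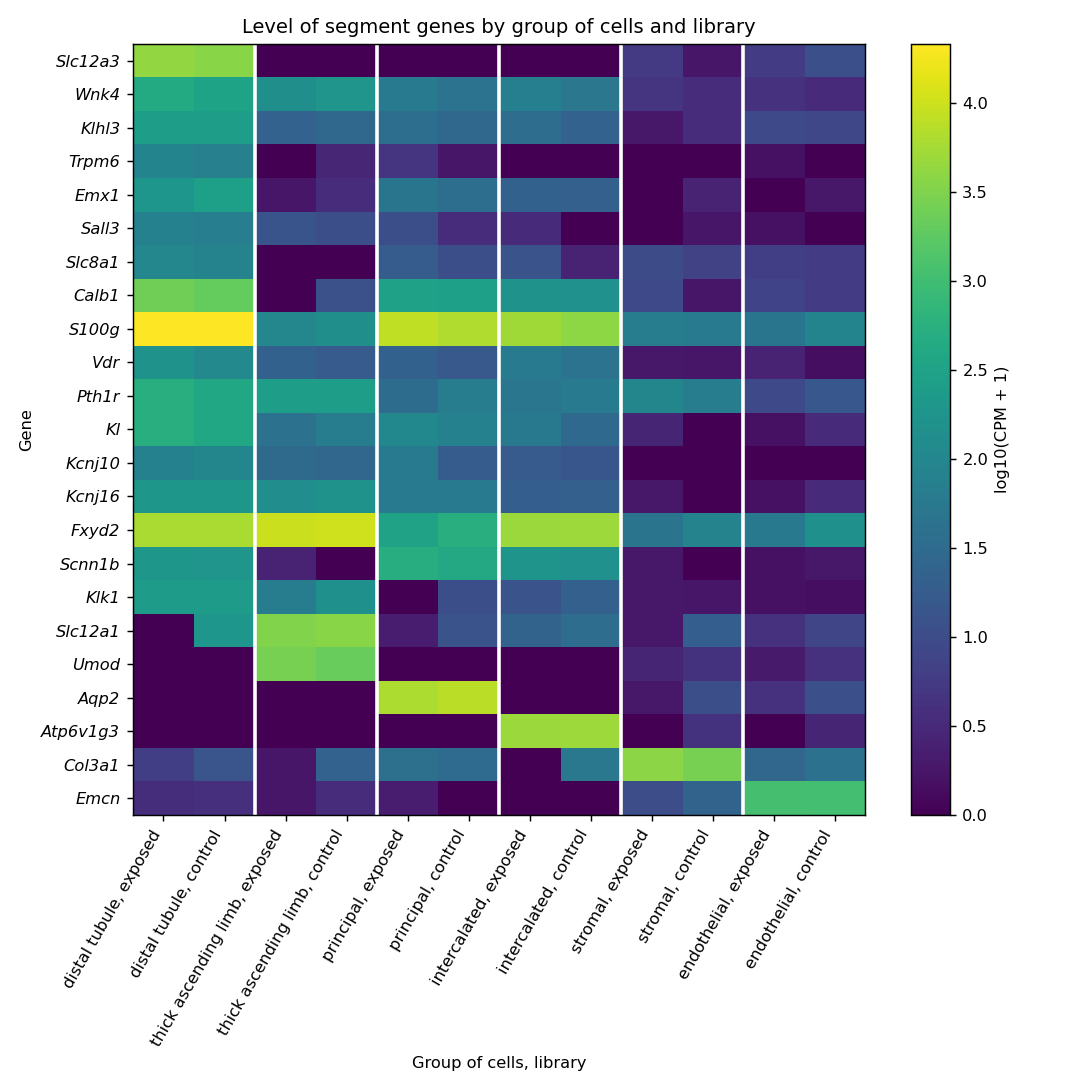
Colour gives log10(CPM + 1) of 23 genes in the members and in 5 other groups of cells, the exposed library left of the control library in each pair. Slc12a3 is at 0 in the thick ascending limb, principal and intercalated groups by their definition, whereas Trpm6, Klhl3, Emx1 and Slc8a1, which no definition used, are highest in the members of both libraries.

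Across all 2623 genes with at least 50 UMIs, 884 (33.7%) were higher and 1739 (66.3%) lower in exposed members, with a median log2 ratio of -0.13. Of these 42 were at least 1.5-fold higher in exposed members (1.6%) and 225 at least 1.5-fold lower (8.58%), on the scale of log2(CPM + 10). Without the cells carrying other markers 1860 genes were measured, 855 (46.0%) higher and 1005 (54.0%) lower, with 44 past 1.5-fold higher (2.37%), 65 past 1.5-fold lower (3.49%) and a median log2 ratio of -0.028. With CPM taken over UMIs that are not mitochondrial, 92 genes were at least 1.5-fold higher and 170 at least 1.5-fold lower. On that scale 1375 of the 2623 genes were lower at any size. The higher share of mitochondrial UMIs in exposed members moves with this excess of lower genes, and its part was not tested.

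The salt transport genes were near equal in the libraries. Of the 26 genes listed, 25 were listed for both libraries and 22 had at least 50 UMIs. Without the rule genes 11 of 20 were higher in exposed members, with a median log2 ratio of 0.0064. Slc12a3 had 4334 CPM in exposed and 3675 CPM in control members, a ratio of 1.18 (1.11 to 1.26), and a ratio of 1.04 (0.974 to 1.11) without the cells carrying markers of other types. Wnk4, a kinase that controls the cotransporter, had 443 CPM in exposed and 327 CPM in control members, a ratio of 1.36 (1.10 to 1.66). The Wnk4 ratio was 1.32 (1.06 to 1.64) without the cells carrying other markers, and among cells with at most 50% mitochondrial UMIs it was 1.18 (0.904 to 1.52), and 0.908 (0.559 to 1.44) with at most 25%. Wnk1, of which the kidney makes a kinase-deficient form, had 2166 CPM in exposed and 1853 CPM in control members, a ratio of 1.17 (1.07 to 1.28). Klhl3 differed by less, with a ratio of 1.03 (0.798 to 1.31).

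Other genes of the basolateral side differed little. Bsnd, the chloride channel subunit barttin, had 101 CPM in exposed and 105 CPM in control members, a ratio of 0.964 (0.634 to 1.45). Kcnj10 and Kcnj16, which form the basolateral potassium channel, had ratios of 0.817 (0.513 to 1.27) and 1.00 (0.743 to 1.34). Atp1b1 and Fxyd2, the beta and gamma subunits of the sodium pump, had ratios of 0.919 (0.862 to 0.978) and 0.977 (0.928 to 1.03), and of 1.03 (0.965 to 1.11) and 1.07 (1.01 to 1.13) among cells with at most 50% mitochondrial UMIs. Kcnj1, the apical potassium channel, had 316 CPM in exposed and 239 CPM in control members, a ratio of 1.32 (1.03 to 1.68). The Kcnj1 ratio was 1.27 (0.985 to 1.65) without the cells carrying other markers. With at most 25% mitochondrial UMIs it was 0.973 (0.591 to 1.56). The epithelial sodium channel was present, with Scnn1b at 194 CPM in exposed and 178 CPM in control members. Hsd11b2, the enzyme that shields the mineralocorticoid receptor from glucocorticoids, was the one member of the salt list past 1.5-fold: it had 34.5 CPM in exposed and 78.8 CPM in control members, a ratio of 0.438 (0.219 to 0.812) from 13 and 55 UMIs. It was found in 7.32% of exposed and 17.2% of control members, and 1 cell held 53.8% of its exposed UMIs.

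All 5 measured calcium genes outside the rule were higher in exposed members, with a median log2 ratio of 0.42, where 33.7% of all genes were higher. Without the cells carrying other markers 4 of 5 were higher, with a median of 0.38, where 46.0% of all genes were higher. Of the 15 genes listed, 11 were listed for both libraries and 8 were measured. Vdr, the vitamin D receptor (chr15:97854425-97910630, minus strand), had 167 CPM in exposed and 109 CPM in control members, a ratio of 1.54 (1.08 to 2.17). Pth1r, the receptor for parathyroid hormone (chr9:110722085-110747145, minus strand), had 547 CPM in exposed and 391 CPM in control members, a ratio of 1.40 (1.16 to 1.68). For both, the ratio was larger without the cells carrying markers of other types, at 1.67 (1.15 to 2.44) for Vdr and 1.55 (1.27 to 1.90) for Pth1r, and larger among cells with at most 50% mitochondrial UMIs, at 1.69 (1.14 to 2.51) and 1.49 (1.2 to 1.85). The other 3, the calcium pumps Atp2b1 and Atp2b4 and the sodium-calcium exchanger Slc8a1, had ratios of 1.08 (0.786 to 1.49), 1.37 (0.946 to 1.97) and 1.19 (0.772 to 1.82). Their intervals include 1, and without the cells carrying other markers Slc8a1 was at 0.999 (0.640 to 1.54). Among cells with at most 25% mitochondrial UMIs Atp2b4 was at 0.859 (0.371 to 1.83) and Slc8a1 at 0.663 (0.159 to 2.11). Among the rule genes, S100g had 21574 CPM in exposed and 21087 CPM in control members and Calb1 had 2450 CPM in exposed and 2069 CPM in control members. Without the cells carrying other markers their ratios were 0.879 (0.854 to 0.903) and 0.980 (0.900 to 1.07), and among cells with at most 25% mitochondrial UMIs 0.463 (0.435 to 0.492) and 0.527 (0.423 to 0.653). Kl, another rule gene, had 544 CPM in exposed and 401 CPM in control members, a ratio of 1.36 (1.13 to 1.63), and of 1.17 (0.968 to 1.41) without the cells carrying other markers.

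**Figure D3:**
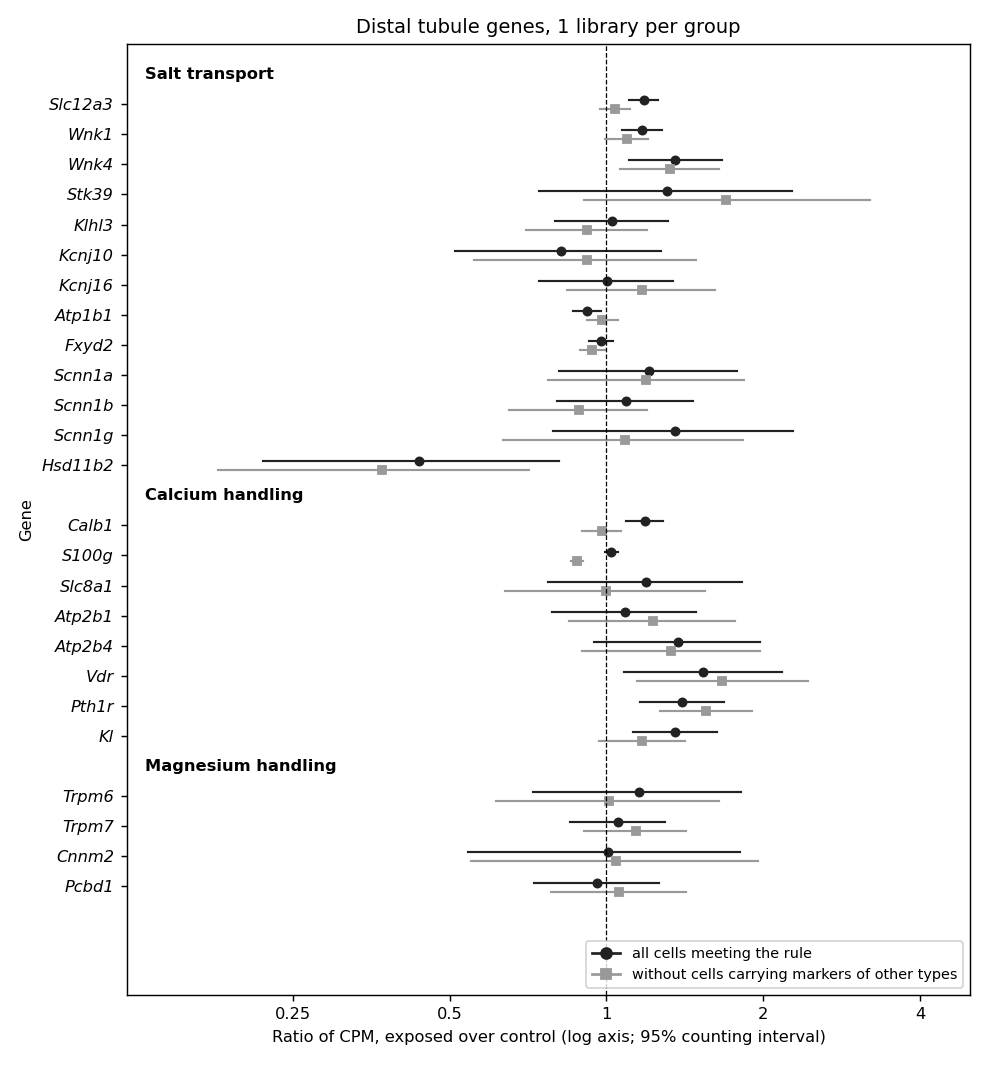
Ratio of CPM, exposed over control, on a log axis with 95% counting intervals, for salt, calcium and magnesium genes; circles use all cells meeting the rule and squares leave out cells carrying markers of other types. Wnk4, Vdr and Pth1r lie right of 1 with both sets of cells, Hsd11b2 lies left of 1 with both, and Slc12a3 and Calb1 come to 1 without those cells.

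The magnesium genes were near equal. Of 13 genes listed, 7 were listed for both libraries and 6 were measured, 3 of them higher in exposed members, with a median log2 ratio of -0.013. Trpm6 had a ratio of 1.15 (0.723 to 1.81) and Trpm7, a widely expressed channel kinase of the same family, a ratio of 1.05 (0.853 to 1.30). Both intervals include 1.

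Of 15 measured segment transcription factors, 5 were higher and 10 lower in exposed members, which is near the 66.3% of all genes that were lower. Emx1 was lower in exposed members, with a ratio of 0.675 (0.506 to 0.892), and kept this difference without the cells carrying other markers, at 0.662 (0.492 to 0.883). Tfap2b had 138 CPM in exposed and 205 CPM in control members, a ratio of 0.674 (0.481 to 0.931), and of 0.877 (0.603 to 1.26) without those cells. Mecom, a zinc finger regulator, had 199 and 289 CPM in exposed and control members, and its ratio of 0.688 (0.520 to 0.901) was 0.802 (0.596 to 1.07) without those cells. Gata3, a factor of the connecting tubule and collecting duct, had 45.1 CPM in exposed and 81.7 CPM in control members, a ratio of 0.552 (0.301 to 0.963), the one factor past 1.5-fold. Hoxd8 and Tfcp2l1, at 571 and 467 CPM in exposed and 567 and 532 CPM in control members, were the most abundant of the list, with ratios of 1.01 (0.848 to 1.19) and 0.879 (0.730 to 1.05). Irx1, Irx2 and Irx3 had 0 UMIs in exposed members and 3, 4 and 5 UMIs in control members. A count of 0 in exposed members allows up to 7.96 CPM, so counts this small do not tell the libraries apart. Without the cells carrying other markers the control counts of these 3 genes were 1, 0 and 2 UMIs. The median log2 ratio of the list was -0.19, and -0.053 without the cells carrying other markers.

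Other distal genes went both ways, 7 of 19 outside the rule being higher in exposed members. Defb1, a secreted antimicrobial peptide, had 1900.2 CPM in exposed and 1353 CPM in control members, a ratio of 1.40 (1.27 to 1.55). It was 1.22 (1.10 to 1.35) without the cells carrying other markers, and 1.04 (0.828 to 1.29) among cells with at most 25% mitochondrial UMIs. Wfdc2, a secreted protease inhibitor of epithelia, had 1364 CPM in exposed and 1726 CPM in control members, a ratio of 0.790 (0.711 to 0.877). Klk1, tissue kallikrein, was at 234 CPM in both, but its ratio was 1.61 (1.13 to 2.29) among cells with at most 50% mitochondrial UMIs, 0.270 (0.0834 to 0.680) among cells with at most 25%, from 5 and 43 UMIs, and 0.835 (0.633 to 1.09) without the cells carrying other markers. Of 11 junction and keratin genes 9 were lower in exposed members, beside 66.3% of all genes. With CPM over non-mitochondrial UMIs 7 were lower, beside 1375 of all 2623 genes. Without the cells carrying other markers 6 of 9 were lower, beside 54.0% of all genes. Of the 11 genes 1, Krt8, passed 1.5-fold, at 71.7 CPM in exposed and 150.4 CPM in control members.

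The 12 genes with the highest ratios, among those found in at least 10 cells of the exposed library, were Fos, Apoe, Mcl1, Junb, Btg2, Jun, Hspb1, Hes1, yam1, Nhp2, Hspa1a and Abhd11. Fos and Jun, immediate early genes that cells switch on within minutes of a stimulus, had 321 and 393 CPM in exposed and 109 and 192 CPM in control members, ratios of 2.95 (2.2 to 3.98) and 2.05 (1.61 to 2.6). Apoe, a lipid carrier abundant in macrophages, had 560.0 CPM in exposed and 196 CPM in control members, a ratio of 2.85 (2.29 to 3.56), and of 1.06 (0.719 to 1.56) without the cells carrying other markers. The transcript yam1, which has no entry in the annotation used here, had 2763 CPM in exposed and 1489 CPM in control members, a ratio of 1.86 (1.70 to 2.02). It was found in 80 of 82 exposed and 156 of 163 control members. Its ratio was also above 1 in the other groups, at 1.65 in thick ascending limb, 1.22 in principal, 1.64 in intercalated, 1.81 in stromal and 1.66 in endothelial cells.

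The 12 lowest, among those found in at least 10 cells of the control library, were Slc12a1, Lrp2, Idh1, Ptn, Tmem27, Cdk16, Tead1, Cnot6, Map3k2, Aqp3, Por and Sparc. Lrp2, the endocytic receptor megalin of the proximal tubule, had 10.6 CPM in exposed and 94.6 CPM in control members, a ratio of 0.112 (0.0297 to 0.301). The Lrp2 ratio was 0.330 (0.0813 to 1.00) without the cells carrying other markers, from 4 and 18 UMIs. Tmem27, another proximal gene, and Sparc, a matrix protein, had ratios of 0.197 (0.0612 to 0.493) and 0.370 (0.175 to 0.716), and of 0.928 (0.239 to 3.22) and 1.11 (0.319 to 3.66) without the cells carrying other markers. Cdk16, a cyclin-dependent kinase, had a ratio of 0.295 (0.112 to 0.659) with all members and 0.315 (0.118 to 0.724) without those cells. Cnot6, a subunit of the deadenylase complex, and Map3k2, a kinase, stood at 0.329 (0.156 to 0.629) and 0.302 (0.114 to 0.676) with all members and at 0.334 (0.143 to 0.700) and 0.297 (0.111 to 0.679) without them. Aqp3, a basolateral water channel of the connecting tubule and collecting duct, had 21.2 CPM in exposed and 67.3 CPM in control members, from 8 and 47 UMIs.

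**Figure D4:**
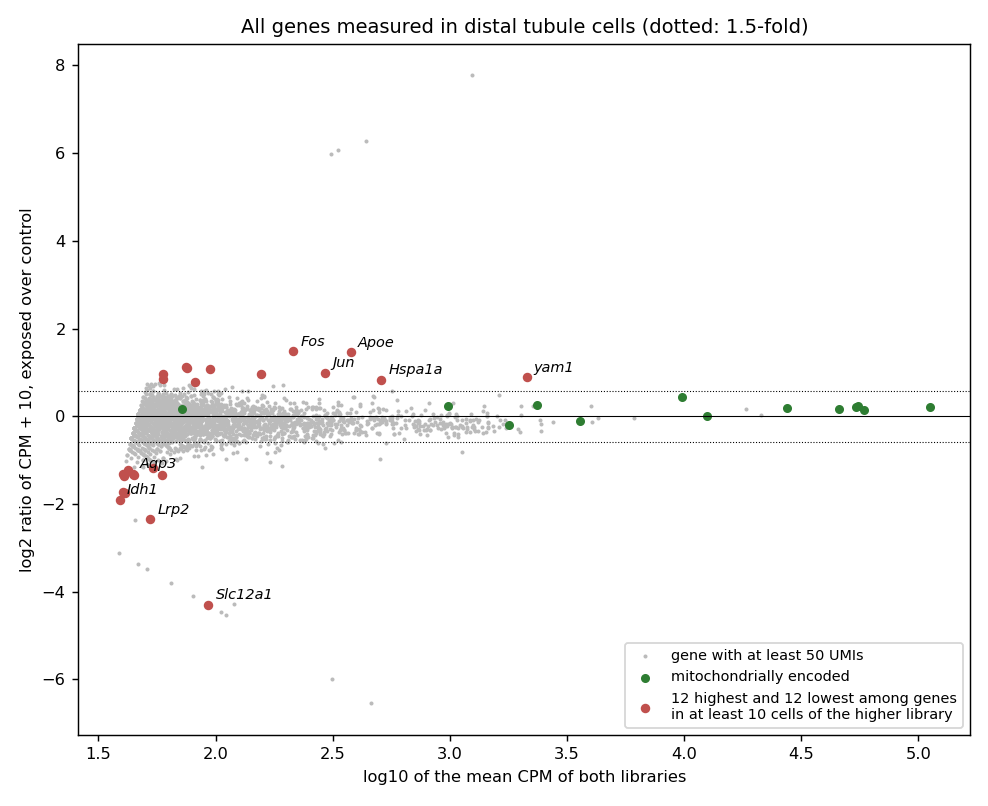
Each point is a gene with at least 50 UMIs in the members, at the log10 of its mean CPM and its log2 ratio of CPM + 10, exposed over control. Named points include Fos, Apoe, Jun, Hspa1a and yam1 above and Slc12a1, Lrp2, Idh1 and Aqp3 below; grey points beyond them, among them the erythroid genes at the top, were found in fewer than 10 cells of the library with the higher level.

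Most immediate early and heat shock genes were higher in exposed members, and a few cells held most of the exposed UMIs of Fos, Jun and Hspa1a. Of 10 measured immediate early genes 8 were higher and 4 passed 1.5-fold (median log2 ratio 0.34). Of 11 heat shock genes 10 were higher and 3 passed 1.5-fold (median 0.41). Across all genes 33.7% were higher and 1.6% passed 1.5-fold higher. Without the cells carrying other markers 7 of 8 immediate early genes were higher, 4 past 1.5-fold, with a median of 0.70. Of 9 heat shock genes 8 were then higher, 1 past 1.5-fold, with a median of 0.27. Of all genes measured without those cells 46.0% were higher and 2.37% passed 1.5-fold higher. The ratios of Fos and Jun were then 3.51 (2.45 to 5.12) and 2.59 (1.93 to 3.49). That step kept 104 of the 121 exposed Fos UMIs. A single cell, kept by it, held 59.5% of the exposed Fos UMIs of all members. Its Slc12a3 level of 70.5 CPM was the lowest among exposed members, so the Fos ratio rests largely on 1 cell that barely met the rule. Fos was found in 12 exposed and 27 control members, and the 5 cells with most Fos held 93.4% of its exposed UMIs and 50% of its control UMIs. For Jun the 5 top cells held 73.0% of exposed and 47.8% of control UMIs, and for Hspa1a, a stress-induced chaperone found in 30 exposed and 71 control members, 72.5% and 37.4%. Hspa1a has a near-identical copy, Hspa1b, so reads may be split between them. The 5 top cells had median mitochondrial shares of 11.9% for Fos and 9.0% for Hspa1a in the exposed library, well below the median of all members. With the 5 top cells of each gene left out of each library, a larger share of the 82 exposed than of the 163 control members, the median log2 ratio was -0.80 for the immediate early and -0.095 for the heat shock genes, and with at least 2 Slc12a3 UMIs required of a member it was -0.012 and -0.068. In the other groups the immediate early median was 0.55 in thick ascending limb, 0.93 in principal and 0.43 in intercalated cells. It was -0.39 in stromal and -0.18 in endothelial cells. The heat shock median was 0.015 in thick ascending limb, 0.41 in principal and 0.19 in intercalated cells. It was 0.074 in stromal and -0.062 in endothelial cells.

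Mitochondrially encoded genes were mostly higher and nuclear-encoded energy genes mostly lower in exposed members. Of 13 mitochondrially encoded genes, 10 were higher in exposed members, with a median log2 ratio of 0.19. The median was 0.048 without the cells carrying other markers and -0.025 among cells with at most 50% mitochondrial UMIs. mt-Nd2, a complex I subunit, had the largest difference, with a ratio of 1.36 (1.31 to 1.42), and mt-Nd3 lay the other way at 0.865 (0.786 to 0.952). The list median in the other groups was 0.053 in thick ascending limb, -0.35 in principal and -0.26 in intercalated cells. It was -0.41 in stromal and -0.60 in endothelial cells. Of 74 nuclear-encoded respiratory chain genes 66 were lower in exposed members, with a median of -0.18, where 66.3% of all genes were lower with a median of -0.13. With CPM over non-mitochondrial UMIs 46 of the 74 were lower, with a median of -0.059. On that scale 1375 of all 2623 genes were lower, with a median of -0.028. Without the cells carrying other markers 56 were lower, with a median of -0.13, beside 54.0% of all genes with a median of -0.028. With CPM over all UMIs, 71 of the 74 were lower in thick ascending limb, 46 in principal and 58 in intercalated cells. In stromal cells 48 were lower, and in endothelial cells 33. Of 11 glycolysis genes outside the rule 8 were lower, near the 66.3% of all genes, and Ldha and Pfkp passed 1.5-fold with and without the cells carrying other markers. With CPM over non-mitochondrial UMIs 6 of 12 glycolysis genes, Pgam2 included, were lower. The 20 cell cycle genes summed to 287 CPM in exposed and 484 CPM in control members, from 108 and 338 UMIs. Only 1 of them, Hmgb2, was measured, with a log2 ratio of -1.04. Without the cells carrying other markers Hmgb2 had 30 UMIs in exposed and 114 in control members, so the sum is not a broad difference. Mki67, a marker of dividing cells, had 1 UMI in exposed and 3 in control members.

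With CPM over all UMIs, segment genes went both ways between members with over 50% mitochondrial UMIs and the rest. In the cells over 50% Slc12a3 had 4793 CPM in the exposed and 4452 CPM in the control library, against 4073 and 3421 CPM in members at or below 50%. Trpm6 had 139 and 110.4 CPM in the cells over 50%, in the exposed and control libraries, against 58.2 and 64.7 CPM at or below. Kl had 682 and 564 CPM over 50%, against 466 and 348 CPM at or below. Emx1 was lower in the cells over 50%, with 117 and 116 CPM, against 225 and 327 CPM at or below. S100g had 17303 and 12843 CPM over 50%, against 23998 and 23785 CPM at or below, and Pgam2, Defb1 and Fxyd2 were also lower over 50% in both libraries. Gapdh, a glycolysis enzyme, had 308 and 314 CPM over 50%, against 1510.3 and 1324 CPM at or below. Fos had 36.6 and 11.6 CPM over 50%, against 483 and 141 CPM at or below, again exposed before control. These CPM count mitochondrial UMIs, so the split itself lowers other genes over 50%. With CPM over non-mitochondrial UMIs S100g had 54984 and 40055 CPM over 50%, against 32159 and 31913 CPM at or below. Pgam2, Defb1 and Fxyd2 were then also higher over 50% in both libraries. Emx1 then had 373 and 362 CPM over 50%, against 301 and 439 CPM at or below. Gapdh and Fos stayed lower over 50% in both libraries.

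The members also varied along the calcium genes. In each library the cells were split at the median share of UMIs from Calb1 and S100g, which fixes those genes, into 41 and 41 exposed and 82 and 81 control cells. Of 2621 genes measured in this split, 62 (2.37%) were at least 1.5-fold higher and 124 (4.73%) at least 1.5-fold lower in the calcium-high cells of both libraries. Scnn1b, a subunit of the epithelial sodium channel, had 324 CPM in calcium-high and 50.3 CPM in calcium-low exposed cells, and 307 and 33.3 CPM in control cells. Scnn1g, another subunit, had 116 and 22.3 CPM in exposed and 92.4 and 9.09 CPM in control cells, calcium-high before calcium-low. Klk1 had 389 and 61.4 CPM in exposed cells and 375 and 75.8 CPM in control cells in the same order. Aqp3 had 8 UMIs in calcium-high and 0 in calcium-low exposed cells, and 45 and 2 in control cells. These genes are known from the connecting tubule. Spp1, Kl, Defb1, Tspan1, Ltc4s and Gm7325 were the other leading genes of the calcium-high cells.

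Of the 5 measured calcium genes outside the rule, 4 were at least 1.5-fold higher in calcium-high cells of both libraries and 1 was lower. Across all genes 2.37% were at least 1.5-fold higher in both libraries. Kl, a rule gene that the split did not use, had log2 differences of 2.13 in exposed and 1.61 in control cells. Slc8a1 had log2 differences of 1.56 in exposed and 1.33 in control cells, Atp2b4 of 1.67 and 1.04, Vdr of 1.55 and 0.79, and Pth1r of 1.32 and 0.66. Atp2b1 went the other way, at -0.69 and -0.37. Among cells with at most 25% mitochondrial UMIs the exposed difference was -0.48 for Klk1 and -0.015 for Slc8a1. Slc12a3 differed less, at 0.57 and 0.51. Genes lower in calcium-high cells of both libraries were led by Tmsb4x, an actin-binding peptide, with 50.6 CPM in calcium-high and 1351 CPM in calcium-low exposed cells and 117 and 967 CPM in control cells. Jag1, a Notch ligand, Cldn19, a claudin of the thick ascending limb, and Lhx1 and Sall3, transcription factors, were also lower, with log2 differences of -1.39, -1.21, -1.99 and -0.64 in exposed and -1.59, -1.26, -0.60 and -1.68 in control cells. The calcium-low cells held 9 of the 10 exposed and 19 of the 25 control members with a single Slc12a3 UMI, and 32 of the 63 exposed and 413 of the 489 control UMIs of proximal markers, and the part of these cells in the split was not tested.

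**Figure D5:**
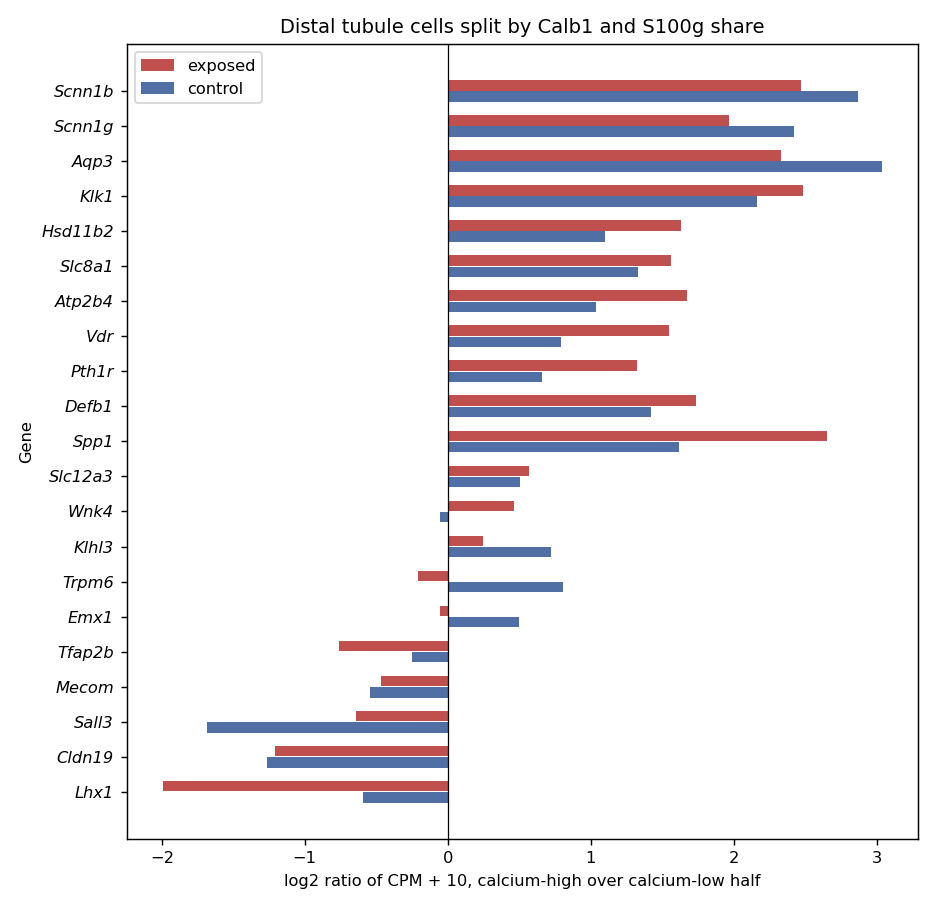
Bars give the log2 ratio of CPM + 10 in the calcium-high over the calcium-low cells of each library, exposed above control for each gene; bars start at 0. The sodium channel subunits Scnn1b and Scnn1g and Klk1 lie above 1.9 in both libraries, the exposed Aqp3 bar is set by the 10 CPM added because calcium-low cells had 0 UMIs, Slc12a3 near 0.5, and Sall3, Cldn19 and Lhx1 below 0 in both.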

How the data were processed

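Counts per gene and cell were deposited as raw UMI counts with no normalization, made with Cell Ranger 2.2.0 and build mm10 per the submitters' processing notes. The percent of mitochondrial UMIs and the doublet score per cell were computed by the authors, per the file headers. How the authors chose the cells and genes to keep is not stated in the labels or headers, and the deposited log2 values were not used. Doublets were treated only by dropping cells with a hybrid score over 1, which took out 1 exposed and 8 control cells that met the rest of the rule.

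Comparisons used the 8930 genes that both tables list, which hold 99.4% of UMIs in each. The 615 genes listed for the exposed library alone and the 660 for the control library alone stayed out. UMIs were summed over members per library and scaled to CPM, the UMIs of a gene divided by all UMIs of those genes in the members and multiplied by 1e6, and log2 ratios of exposed over control used CPM with 10 added, so changes of low genes come out too small. A gene counted as measured with at least 50 UMIs over both libraries. Python 3.11.15, numpy 2.4.6, scipy 1.17.1 and pandas 2.3.3 were used. Shares have Clopper-Pearson and share differences Newcombe intervals, and ratios have conditional binomial intervals; all cover counting error only. The calculation was tested on simulated data.

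Thick ascending limb, principal, intercalated, stromal and endothelial cells were taken by their own markers, with 169, 147, 70, 332 and 466 exposed and 232, 278, 122, 432 and 665 control cells. The members and gene lists were chosen with earlier results of these data known. Besides the listed genes, the text names the 12 highest and 12 lowest ratios among genes in at least 10 cells of the library with the higher level, the 10 genes with most excess over neighbouring cells, and the leading genes of the calcium split, which were chosen after their values were seen. The alternatives were stricter rules, mitochondrial limits of 50 and 25, thinning to 2000 UMIs, other scaling, low-value limits and pseudocount, and leaving out top cells. Leaving out cells with markers of other types, and the split under another scaling, were added after seeing the data. Some members of the lists are counted in the summaries but not reported singly here.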

Additional observations from a re-analysis of the deposited data

Results flagged for a closer look

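Genes listed for a single library stood outside the comparison. Cwh43 was listed for the exposed library only and had 6 UMIs in 5 exposed members, or 15.9 CPM, above the 7.96 CPM that a count of 0 allows. Trpv5, the apical calcium channel of the connecting tubule, was listed for the control library only and had 23 UMIs in 19 control members, or 33.0 CPM, above the 4.30 CPM that a count of 0 allows. Neither gene can be compared between the libraries from these tables.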

How the results depend on the processing

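Of 157 values of the main results under the alternatives, 127 stayed near the main value. Near means within 1.5-fold for counts of genes, and inside the main counting interval for shares and list medians. A list median whose interval includes 0 could change sign and still count as near. Under the alternatives the salt transport median ran from -0.14 to 0.12 and the magnesium median from -0.12 to 0.099. No paired analysis was possible because each group has 1 library and the labels give no replicate numbers. The mitochondrially encoded median turned to -0.025 with at most 50% and -0.075 with at most 25% mitochondrial UMIs, and was 0.31 with doublet scores unused or with non-mitochondrial scaling, and 0.048 without cells of other types. The heat shock median turned to -0.068 with Slc12a3 at 2 or more UMIs and to -0.095 without the 5 top cells, and the immediate early median was 1.05 with at most 25% and -0.80 without the 5 top cells. Genes 1.5-fold higher and lower numbered 81 and 134 with at most 50%, 27 and 69 after thinning, 193 and 665 with at least 20 UMIs, 14 and 51 with at least 100 UMIs, and 18 and 706 without the 5 top cells. Higher genes numbered 92 with non-mitochondrial scaling and 73 as the mean of cell CPM. Lower genes numbered 100 with at most 25%, 404 with doublet scores unused and 65 without cells of other types. In the calcium split, genes lower in both libraries numbered 240 with at most 50%, 290 with doublet scores unused, 79 with Slc12a3 at 2 or more and 64 without cells of other types, and genes higher numbered 111 with at most 25% and 199 after thinning. Single genes turned as well: Junb (-0.60), Hes1 (-0.31) and Hspa1a (-0.19) with Slc12a3 at 2 or more, Hspb1 (-0.075) after thinning, Sparc (0.10) without cells of other types, and Fos (-0.99), Apoe (-0.27), Junb (-0.65), Hspb1 (-0.25), Hes1 (-0.37) and Hspa1a (-0.29) without the 5 top cells. With at most 25%, Klk1 (-0.48), Slc8a1 (-0.015) and Cldn19 (0.59) turned in the exposed split, and the exposed over control log2 ratios of S100g (-1.11), Calb1 (-0.91), Klk1 (-1.66), Slc8a1 (-0.47), Atp2b4 (-0.20), Wnk4 (-0.13), Wnk1 (-0.17), Kl (-0.10), Scnn1b (-0.29) and Trpm6 (-0.94) lay below 0. The causes were not tested.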

Other observations

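Egf, a magnesium-regulating growth factor, was listed for the control library only and had 3 UMIs in 3 members. Casr, the calcium-sensing receptor, was listed for the exposed library only and had 3 UMIs in 3 members. Each is at the level that a count of 0 allows.

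Ltc4s, leukotriene C4 synthase, was among the genes with most excess over neighbouring cells and had 146 CPM in exposed and 88.8 CPM in control members, a ratio of 1.64 (1.12 to 2.40). It was found in 35.4% of exposed and 17.2% of control members, against at most 6.01% of stromal or endothelial cells of either library. Without the cells carrying markers of other types its ratio was 1.46 (0.975 to 2.18).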
